A study of Mus musculus with 55 samples.

Results

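Transcripts of 8 steroid hormone receptor genes were followed in the dorsal hippocampus of adult mice: the estrogen receptors Esr1, Esr2 and Gper1, the progesterone receptor Pgr, the membrane-associated progesterone-binding proteins Pgrmc1 and Pgrmc2, the glucocorticoid receptor Nr3c1 and the mineralocorticoid receptor Nr3c2. They were taken by gene symbol from a table of 55487 genes, and each symbol matched 1 row. RNA was sequenced from 55 mice on a C57BL/6J background, with 1 library per mouse, in 10 groups of 4 to 7 mice: males and females in metestrus, diestrus, proestrus and estrus, each as wild-type (WT, 27 mice) or Cnih3 knock-out (KO, 28 mice). No hormone or drug was given. The comparisons ask whether receptor transcripts differ between estrous stages, between the sexes and between genotypes.

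Cnih3 encodes an auxiliary protein of AMPA glutamate receptors, and the KO line lacks its exon 4, with a shifted reading frame after it. KO mice came from matings within the mutant line, whereas WT mice came partly from that line and partly from unrelated C57BL/6J pairs, so that parentage and genotype partly coincide. Stage was read from vaginal cytology and not from hormone levels, and circulating steroids were not measured in these files. Ages ran from 10.86 to 23.71 weeks and were not balanced: 4 of 6 KO diestrus and 3 of 4 KO proestrus mice were younger than 14 weeks, against 0 of 7 KO males and 0 of 7 WT estrus mice. Each library is a separate mouse, and p-values refer to the spread between mice, some of which may be littermates.

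Estrogen, progesterone and corticosteroid receptors of the nuclear family are transcription factors that wait in complex with chaperones, bind their steroid, and act on DNA together with coactivators or corepressors. In the hippocampus the mineralocorticoid receptor has high affinity for corticosterone and is abundant in pyramidal and granule neurons, while the glucocorticoid receptor is occupied mainly under stress or at the daily peak of the hormone. Gper1 is a membrane receptor coupled to G proteins that responds to estradiol, and the Pgrmc proteins are heme-binding proteins of the cytochrome b5 type, not nuclear receptors. Pgr is a well known target of estrogen receptor alpha, the product of Esr1, in reproductive tissues.

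Sequencing depth was 25881295 to 63547098 counted reads per library. Markers of the hippocampal fields were present in every library: the 6 CA1 pyramidal genes summed to 263 to 462 CPM (read counts scaled to library size) and the 6 dentate granule genes to 172 to 296. The 8 choroid plexus genes ranged from 20.2 to 2230 CPM and the 7 pituitary genes from 4.53 to 245, while the 6 hypothalamic genes stayed between 0.463 and 4.18 CPM. Cnih3 itself had a median of 39.5 CPM in WT and 31.0 in KO mice, with overlapping ranges (21.6 to 62.5 and 21.6 to 47.8), and was lower in KO by 0.34 on the log2 scale (limma, FDR 0.00692). A gene-level count includes the exons that the KO allele keeps and therefore does not show the loss of exon 4.

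The annotated gene models differ in how they begin. Esr1 (ENSMUSG00000019768; GRCm38 chr10:4611593-5005614, plus strand) has transcripts that start near 4611989 and others that start further downstream, at 4710155. Of the estimated counts given to its 9 annotated transcripts, 99.1% went to the protein-coding transcript that starts at 4611989, which had counts in 55 of 55 mice. Both protein-coding transcripts that start at 4710155 had counts in 1 mouse each and held 0.0431% and 0.0381% of the total. These figures say where the estimate placed the fragments, which cannot always be told apart between transcripts that share exons. Both RefSeq start windows of Esr1 (GRCm38.p6, plus strand, 250 bases before to 50 after the RefSeq start), and for comparison those of Pgr and Pgrmc1, are given here because per exon length Esr1 and Pgrmc1 were the lowest and the highest of the genes detected in every mouse, and Pgr lay between them. Capitals mark the GC box GGGCGG and the TATA box TATAAA on either strand.
Esr1, upstream start, chr10:4611739-4612038: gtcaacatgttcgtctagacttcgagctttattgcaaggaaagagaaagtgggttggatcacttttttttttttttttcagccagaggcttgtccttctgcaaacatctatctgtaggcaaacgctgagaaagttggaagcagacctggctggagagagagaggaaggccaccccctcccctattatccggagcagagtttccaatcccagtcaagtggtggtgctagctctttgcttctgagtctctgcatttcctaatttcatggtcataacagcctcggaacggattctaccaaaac
Esr1, downstream start, chr10:4709908-4710207: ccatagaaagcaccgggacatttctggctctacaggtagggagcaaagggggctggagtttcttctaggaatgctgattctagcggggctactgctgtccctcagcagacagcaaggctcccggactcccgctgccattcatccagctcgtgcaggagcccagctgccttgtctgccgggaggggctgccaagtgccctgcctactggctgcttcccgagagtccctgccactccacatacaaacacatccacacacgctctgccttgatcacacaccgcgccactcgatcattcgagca
Pgr, chr9:8899583-8899882: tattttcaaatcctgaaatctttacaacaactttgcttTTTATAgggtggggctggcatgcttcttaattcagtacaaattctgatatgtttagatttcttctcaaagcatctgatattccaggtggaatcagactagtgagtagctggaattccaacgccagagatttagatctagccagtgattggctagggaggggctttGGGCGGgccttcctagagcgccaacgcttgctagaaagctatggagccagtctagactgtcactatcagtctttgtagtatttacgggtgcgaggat
Pgrmc1, chrX:36597943-36598242: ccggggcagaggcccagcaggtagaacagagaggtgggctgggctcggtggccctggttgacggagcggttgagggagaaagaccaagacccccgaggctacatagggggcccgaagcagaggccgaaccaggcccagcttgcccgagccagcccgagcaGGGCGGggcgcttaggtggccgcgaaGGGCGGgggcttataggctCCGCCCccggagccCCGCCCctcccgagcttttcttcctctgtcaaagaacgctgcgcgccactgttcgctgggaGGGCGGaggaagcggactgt
Neither Esr1 window held a GC box or a TATA box. The Pgr window held 1 of each, and the Pgrmc1 window held 5 GC boxes and no TATA box. Over all 32851 windows of this length, 35.7% held a GC box and 13.6% a TATA box. The dinucleotide CG occurred 6 times in the upstream and 12 times in the downstream Esr1 window, 6 times in that of Pgr and 24 times in that of Pgrmc1, against a median of 7.0. The full estrogen response element (GGTCA and TGACC with 3 bases between them) and the full glucocorticoid and progesterone response element (AGAACA and TGTTCT with 3 bases between them), searched on both strands, had no match in the 8 windows examined, which covered all members but Nr3c1. They were present in 0.07% and 0.00913% of all windows, and the absence says only that these letters are not within 300 bases of the annotated start.

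The 8 genes spanned a wide range of expression. On the RPKM scale, which divides reads by exon length (GENCODE M21) and library size, the median levels over 55 mice were 142 for Pgrmc1, 19.9 for Nr3c2, 11.9 for Nr3c1, 8.09 for Pgrmc2, 1.7 for Pgr, 0.779 for Gper1, 0.161 for Esr1 and 0.0111 for Esr2. Ranked with the genes tested, Pgrmc1 lay above 97.5% of them, Nr3c2 above 82.9%, Nr3c1 above 74.6%, Pgrmc2 above 66.6%, Pgr above 30.6%, Gper1 above 17.0% and Esr1 above 1.49%. The ranges of Pgrmc1 (117 to 179) and Nr3c2 (13.8 to 25.6) did not overlap each other, whereas those of Nr3c2 and Nr3c1 (9.28 to 15.6) did, as did those of Nr3c1 and Pgrmc2 (6.09 to 12.7). Estrogen receptors were therefore the least abundant of the receptor transcripts, and Esr1 the lowest of those that passed the filter of over 1 CPM in at least 10 libraries.

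**Figure D1:**
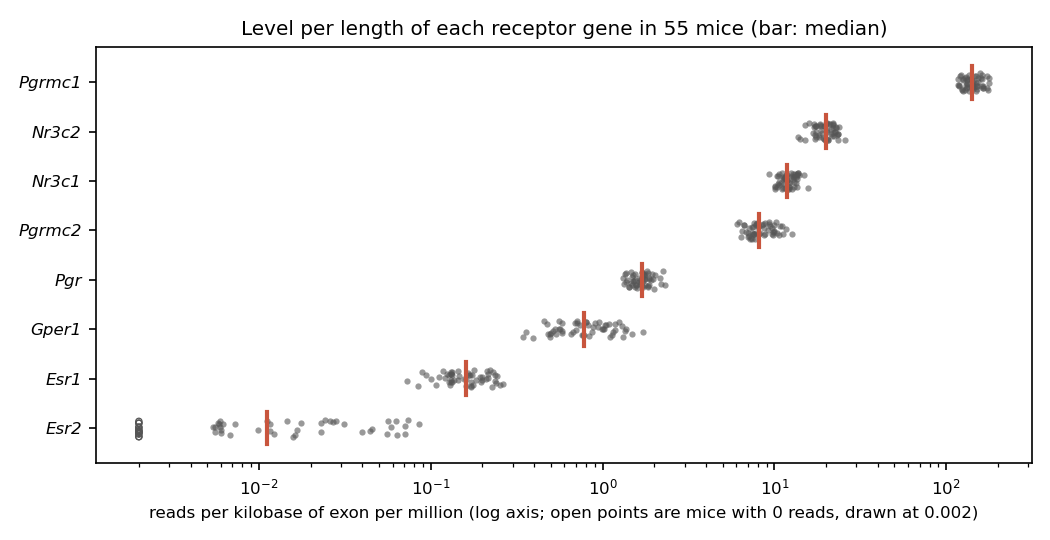
Level of each receptor gene in RPKM (reads by exon length and library size) on a log axis, with 1 point per mouse and a bar at the median of 55 mice. Medians run from 0.0111 for Esr2 to 142 for Pgrmc1, and the 14 mice without an Esr2 read are drawn as open points at the left.

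Esr1 was detected in every mouse at a low level. Its read count was 49 to 175 per library with a median of 107, and 54 of 55 mice were above 1 CPM by total count. On the CPM scale normalized by TMM (used for all CPM below), group means ran from 1.86 ± 0.264 (SD, n = 4) in WT metestrus to 2.77 ± 0.738 (n = 5) in KO metestrus. The 5 KO metestrus mice had 1.74, 2.25, 3.13, 3.28 and 3.45 CPM and the 4 WT metestrus mice 1.53, 1.78, 1.97 and 2.15. The KO values were higher in 4 of 5 mice, but the groups overlapped and the difference of 0.51 on the log2 scale (SE 0.25) did not pass the test (limma, FDR 0.542). In the 39 comparisons run, Esr1 passed in 0 with limma and had an unadjusted p under 0.05 in 2, and edgeR and DESeq2 also called it in 0.

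Esr2, which encodes estrogen receptor beta (ENSMUSG00000021055; GRCm38 chr12:76120419-76177259, minus strand), was at the limit of detection. It had 188 reads in all 55 libraries together, a median of 1 and a maximum of 14 per library, and 0 reads in 14 mice. At these depths a count of 0 allows up to 3 reads, which is 0.0499 to 0.0844 CPM, and 18 of 55 mice had more than 3 reads. This limit covers counting error only. Counts per gene were 2.27 to 3 times the estimated transcript counts of the 8 genes, and if both reads of a pair were counted, the limit in reads and CPM would be higher. The highest values were 0.287 CPM in 1 WT diestrus mouse and 0.25 in 1 WT proestrus mouse, and every group included mice at or below 1 read. Of its estimated transcript counts, 49 counts in 18 mice fell on the transcript that starts at 76167715 inside the gene, and 1 count fell on the 3 transcripts that start at 76177259. Esr2 did not pass the filter; tested in the same model without that filter it was called in 0 of 39 comparisons, with 2 at an unadjusted p under 0.05, where 16.6% of 45263 genes were called in at least 1 comparison. Differences in Esr2 between groups were not detectable at this depth, and part of its locus overlaps the annotated gene Gm7862, from which unstranded reads cannot be told apart.

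Gper1 (ENSMUSG00000053647; GRCm38 chr5:139423151-139427800, plus strand) was the most variable of the genes above the filter. Its count was 26 to 225 with a median of 96, and its SD within groups was 0.55 on the log2 scale, larger than that of 83.5% of the 1665 genes of like level. The gene lies within 3110082I17Rik on the opposite strand (median 28.4 CPM). Their annotated exons share 0 bases, but intronic reads of the other gene would count as Gper1 in an unstranded library.

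Among the KO females, Gper1 was highest in diestrus. The 6 KO diestrus mice had a lowest value of 0.913, a median of 3.02 and a highest value of 4.36 CPM, the 5 KO metestrus mice had 1.21, 1.25, 1.3, 1.88 and 1.93, and the 4 KO proestrus mice had 0.868, 1.22, 1.71 and 2.81. KO diestrus overlapped KO metestrus through the mice at 0.913 and 1.81, and KO proestrus also through a mouse at 2.76. Gper1 was 1.96-fold lower in KO metestrus than in KO diestrus (log2 difference -0.97, SE 0.29, FDR 0.0219, in a comparison where 10.4% of genes were called) and 1.87-fold higher in KO diestrus than in KO proestrus (0.90, SE 0.30, FDR 0.0175, where 34.3% were called). In WT mice the same differences were -0.22 (SE 0.31, FDR 0.683) and 0.52 (SE 0.34, FDR 0.294), and the test of KO against WT differences gave an FDR of 1 and 0.743.

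Age moved with these values. The 3 KO diestrus mice of 10.86 to 11 weeks had the highest Gper1, at 3.28, 3.77 and 4.36 CPM, and the oldest, of 23.43 weeks, had the lowest. Over 55 mice, with group means removed, Gper1 and age had r = -0.52 and rho = -0.44 (permutation within groups, FDR 0.00521 and 0.0185 over 133 relations), and r was -0.38 once the 2 mice that lay farthest in age from their group were left out. With age as a covariate the difference from proestrus stayed at FDR under 0.05 and that from metestrus did not (log2 -0.575, FDR 0.325). With only mice of at least 14 weeks the difference from proestrus turned to -0.83 (FDR 0.788), in a fit with 2 KO diestrus mice and 1 KO proestrus mouse.

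Pgr (ENSMUSG00000031870; GRCm38 chr9:8899833-8968611, plus strand) varied least among the members when each was set beside genes of like level. It had 338 to 1000 reads and 11.3 to 19.6 CPM, and its SD within groups of 0.18 on the log2 scale was larger than that of only 8.94% of the 2214 genes of like level. A single annotated transcript held 98.9% of its transcript counts. In WT females the highest mean was in proestrus, 16.1 ± 2.26 CPM (SD, n = 5), and the lowest in estrus, 13.4 ± 1.34 (n = 7). The 5 WT proestrus mice had 12.7, 15.2, 17.0, 17.2 and 18.5 CPM and the 7 WT estrus mice had a lowest value of 11.6, a median of 13.4 and a highest of 15.2, so 3 of 5 proestrus mice exceeded every estrus mouse. The log2 difference of 0.31 (SE 0.10) had an FDR of 0.0527 and did not pass. It passed with age as a covariate (0.35, FDR 0.0223) and in mice of at least 14 weeks (0.30, FDR 0.0470). It did not pass with edgeR, DESeq2, other size factors, no quality weights or no filter on low counts. Nor did it pass in the subsets by parents or by RNA integrity.

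Against KO males, Pgr was lower in KO diestrus females. The 7 KO males had a lowest value of 13.5, a median of 16.0 and a highest of 16.8 CPM, and the 6 KO diestrus mice 11.4, 13.5 and 15.7. The groups overlapped, and the log2 difference of -0.25 (SE 0.09) had an FDR of 0.0408 where 28.7% of genes were called. The WT difference was -0.23 (SE 0.13, FDR 0.371), close to the KO value. With age as a covariate the KO difference was -0.104 and the call was lost (limma, FDR 0.598). Pgr was the member with most comparisons at an unadjusted p under 0.05, 12 of 39, of which 1 passed the FDR threshold. Across all groups its log2 level in KO minus WT was -0.12 (SE 0.05, FDR 0.198).

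**Figure D2:**
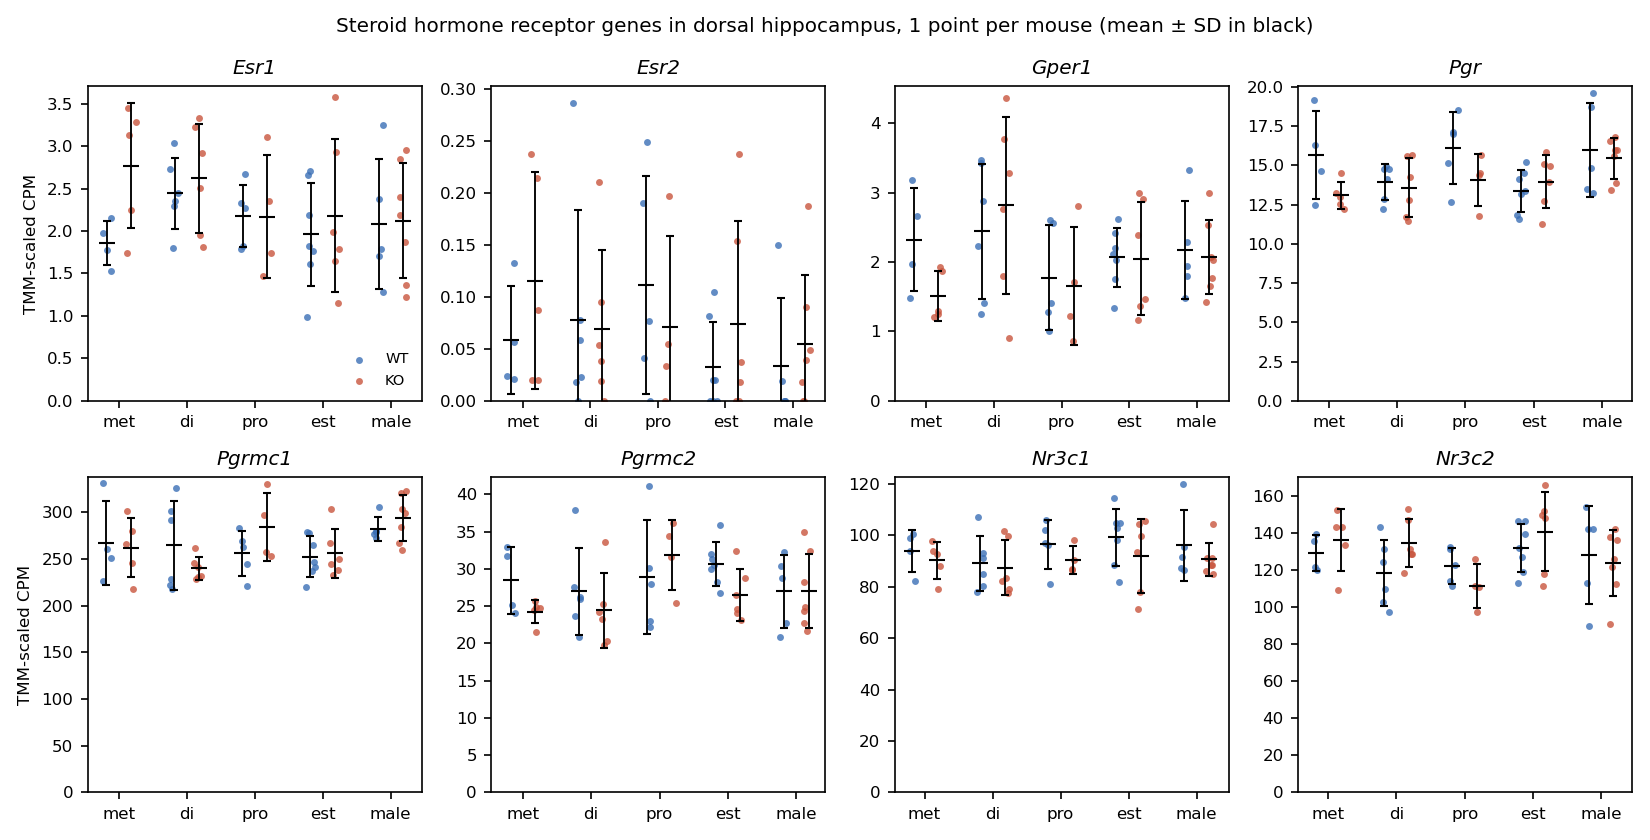
TMM-scaled CPM of the 8 genes in each mouse, by estrous stage (met, di, pro and est for metestrus to estrus) or male sex, WT in blue and KO in red, with group mean and SD in black. Most pairs of groups overlap for every gene, Esr2 lies near 0, and KO diestrus Pgrmc1 values (229 to 262) sit low beside those of KO males (260 to 323).

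Pgrmc1 (ENSMUSG00000006373; GRCm38 chrX:36598206-36606079, plus strand) was the most abundant of the genes and gave the difference that held under most settings. It had 6284 to 17656 reads, with all transcript counts on 1 annotated transcript. The 6 KO diestrus mice had a lowest value of 229, a median of 236 and a highest of 262 CPM, and the 7 KO males 260, 300 and 323. Only the highest KO diestrus mouse, at 261.7, reached the lowest KO male. Pgrmc1 was 1.24-fold lower in KO diestrus than in KO males (log2 -0.31, SE 0.07, FDR 0.00141). It was also lower in KO diestrus than in KO proestrus, whose 4 mice had 253, 257, 297 and 330 CPM (-0.24, SE 0.09, FDR 0.0256), and in the mean of the KO female stages than in KO males (-0.19, SE 0.06, FDR 0.0498, where 5.93% of genes were called).

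In WT mice the corresponding Pgrmc1 difference did not pass. The 5 WT males had 273, 276.5, 279, 280 and 305 CPM and the 6 WT diestrus mice ranged from 218 to 326 around a median of 260, a log2 difference of -0.09 (SE 0.10, FDR 0.672) with a 95% interval of -0.30 to 0.12. The difference between the genotypes was -0.22 (SE 0.13, FDR 1) and did not pass. Microglial markers moved with Pgrmc1: the 6 genes summed to 126 to 161 CPM in KO diestrus mice and to 155 to 207 in KO males, and over all mice Pgrmc1 and this sum had r = 0.71 and rho = 0.72 after removal of group means (FDR 0.000665 for both). In bulk tissue, fewer cells of a type and less RNA per cell cannot be told apart, and the part of microglia in the Pgrmc1 difference was not tested. Age was again confounded with the groups, with a median of 12.43 weeks in KO diestrus and 18.29 in KO males, and with age as a covariate the difference was -0.17 (FDR 0.218). That of all KO female stages from KO males was then -0.10 (FDR 0.574), and this call was lost in 26 of 55 fits that each left out 1 mouse.

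Pgrmc2 (ENSMUSG00000049940; GRCm38 chr3:41066326-41083046, minus strand) was highest in KO proestrus. The 4 KO proestrus mice had 25.4, 31.55, 34.35 and 36.2 CPM, the 5 KO metestrus mice 21.55, 24.5, 24.7, 24.9 and 25.7, and the 6 KO diestrus mice a lowest value of 19.75, a median of 23.7 and a highest of 33.7. All but 1 of the KO proestrus mice lay above every KO metestrus mouse, and 1 KO diestrus mouse, the oldest, lay among the proestrus values. Pgrmc2 was 1.41-fold lower in KO diestrus than in KO proestrus (log2 -0.49, SE 0.12, FDR 0.000881) and 1.33-fold lower in KO metestrus than in KO proestrus (-0.41, SE 0.12, FDR 0.0433, where 4.37% of genes were called). The WT differences were -0.04 (SE 0.13, FDR 0.878) and 0.07 (SE 0.12, FDR 0.857). Tests of the difference between genotypes gave -0.46 (SE 0.18, FDR 0.330) and -0.48 (SE 0.17, FDR 0.201), and neither passed. In KO mice of at least 14 weeks (2 in diestrus, 1 in proestrus) the difference between diestrus and proestrus was 0.173 (FDR 0.921). WT proestrus mice were spread from 22.2 to 41.2 CPM. Without WT proestrus libraries of RNA integrity number under 8, the metestrus to proestrus difference between genotypes was -0.63 (limma, FDR 0.0360). For this result the subset was chosen after seeing the data, and other groups were not filtered by RNA integrity. In that fit 1097 of 16168 genes passed in at least 1 difference between genotypes, against 0 with all libraries.

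Pgrmc1 and Pgrmc2 are related in sequence and both heme-binding, and both were lower in KO diestrus than in KO proestrus. Within groups, however, they did not rise and fall together. Over the mice, with group means removed, they had r = -0.38 and rho = -0.35 (FDR 0.0412 and 0.0790), and r = -0.30 without the 2 mice farthest from the median. Pgrmc2 rather followed Nr3c1 (r = 0.59, rho = 0.59, FDR 0.000887 and 0.000665). It had r = -0.56 with the sum of CA2 pyramidal markers (rho = -0.57, FDR 0.00133 and 0.00106) and r = -0.48 with that of astrocyte markers (rho = -0.48).

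**Figure D3:**
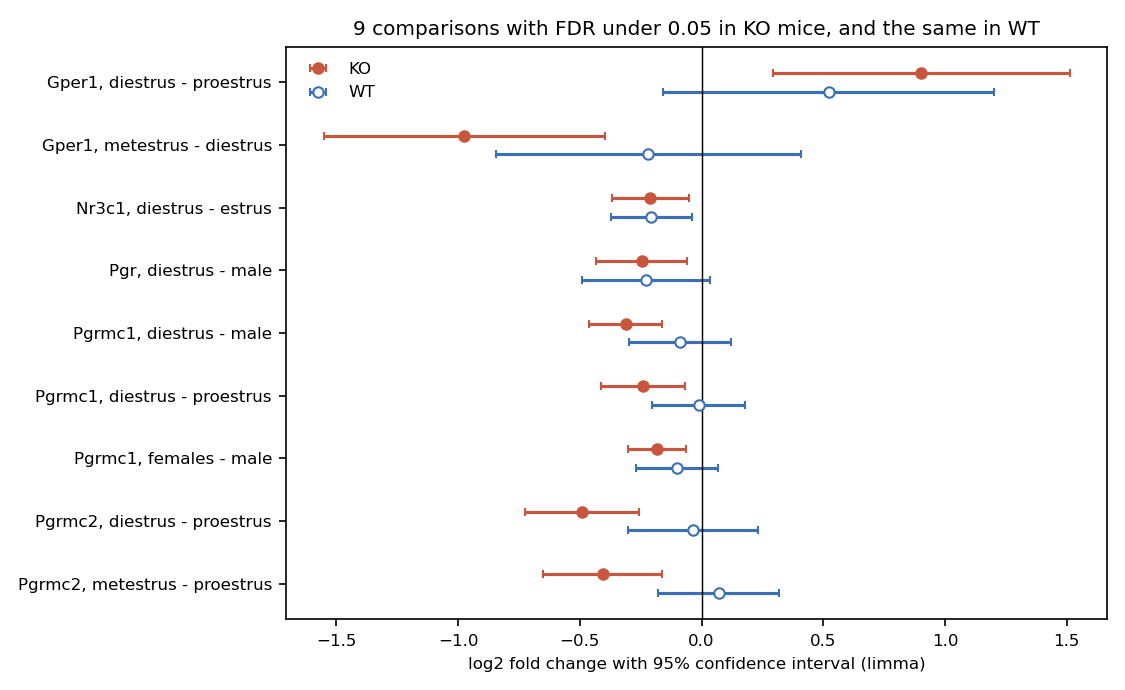
Log2 fold changes with 95% confidence intervals of the 9 member comparisons with FDR under 0.05 in KO mice (filled) and of the same comparison in WT mice (open). The intervals of both genotypes overlap in all 9, and the KO estimates are largest for Gper1 (-0.97 and 0.90).

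Nr3c1 (ENSMUSG00000024431; GRCm38 chromosome 18, 39410545 to 39519421, minus strand) was evenly expressed. It had 2334 to 6173 reads, and group means ran from 87.4 ± 10.7 CPM (SD, n = 6) in KO diestrus to 99.2 ± 11.1 (n = 7) in WT estrus. The lowest mean of each genotype was in diestrus, with 89.0 ± 10.6 (n = 6) in WT. KO diestrus mice had a lowest value of 77.6, a median of 82.8 and a highest of 102 CPM, and KO estrus mice 71.3, 96.6 and 105, so the groups overlapped fully. The log2 difference of -0.21 (SE 0.08) passed in KO (FDR 0.0381, where 30.7% of genes were called), while the nearly equal WT difference of -0.21 (SE 0.08, FDR 0.0632) did not. With age as a covariate the KO difference was -0.149 (FDR 0.194). Its transcript counts were split mainly over protein-coding transcripts that start at 39487245 (72.0%), 39490674 (20.0%) and 39489888 (7.25%), but the share of the leading one ranged from 10.7% to 95.2% between mice, so these assignments were unstable.

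Nr3c2 (ENSMUSG00000031618; GRCm38 chr8:76899442-77245012, plus strand) passed the test in 0 of 39 comparisons with limma, with 6 at an unadjusted p under 0.05, and in 0 with edgeR and DESeq2. Per length its level was above that of Nr3c1 in medians (19.9 and 11.9 RPKM). Its group means ran from 111 ± 11.7 CPM (SD, n = 4) in KO proestrus to 141 ± 21.4 (n = 6) in KO estrus. The 4 KO proestrus mice had 97.45, 111, 111 and 126 CPM and the 6 KO estrus mice a lowest value of 111, a median of 149 and a highest of 166. That log2 difference, -0.32 (SE 0.11), had an FDR of 0.107. Over all mice, the transcript that starts at 76902288 held 51.5% of its counts and the one that starts at 76899772 held 48.3%, but the first share ranged from 0% to 67.9% and the second from 32.0% to 99.9% between mice, so these assignments were unstable too. Group means of the first share lay between 37.9% ± 23.8 (SD, n = 5) in WT males and 57.1% ± 4.45 (n = 5) in WT proestrus.

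Several receptors varied with markers of hippocampal subfields from mouse to mouse, the corticosteroid receptors among them. With group means removed, Nr3c2 had r = 0.69 with the sum of CA1 pyramidal markers (rho = 0.65, FDR 0.000665 and 0.000887) and r = 0.62 with that of dentate granule markers (rho = 0.55, FDR 0.000997 and 0.00266). Nr3c1 had r = 0.53 with CA1 (rho = 0.47) and r = 0.45 with dentate markers (rho = 0.41), and r = -0.56 with CA2 (rho = -0.55) and r = -0.59 with CA3 markers (rho = -0.58). All of these held without the 2 most extreme mice, with r of 0.68, 0.58, 0.51, 0.42, -0.55 and -0.59. Nr3c1 also had r = -0.55 with astrocyte markers (rho = -0.49) and r = -0.48 with interneuron markers (rho = -0.43). Pgr had r = 0.44 with CA1 markers (rho = 0.41), r = -0.45 with CA3 markers (rho = -0.49) and r = 0.46 with the hypothalamic genes (rho = 0.49, FDR 0.00969 and 0.00625), and Pgrmc2 had r = -0.46 with CA3 markers (rho = -0.48). The 6 hypothalamic genes were near the floor, with sums of 0.463 to 4.18 CPM and 0 of them above the filter on low counts. Gper1 went with astrocyte markers (r = 0.50, rho = 0.46, FDR 0.00583 and 0.0166). Their 6 genes summed to a median of 1700 CPM in KO diestrus, 1370 in KO metestrus, 1280 in KO proestrus, 1250 in KO estrus and 1190 in KO males. The group means of Gper1 had another order, with 1.51 CPM in KO metestrus and 2.07 in KO males. Esr1 passed in none of its relations with the 14 marker lists. In all, 133 relations were computed, of which 18 of 98 with marker lists, 6 of 21 between members, 2 of 7 with age and 0 of 7 with library size had an FDR under 0.05, and what part dissection had in them was not tested. The share of all genes with such relations was not computed, so the counts do not set the members apart from genes at large.

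**Figure D4:**
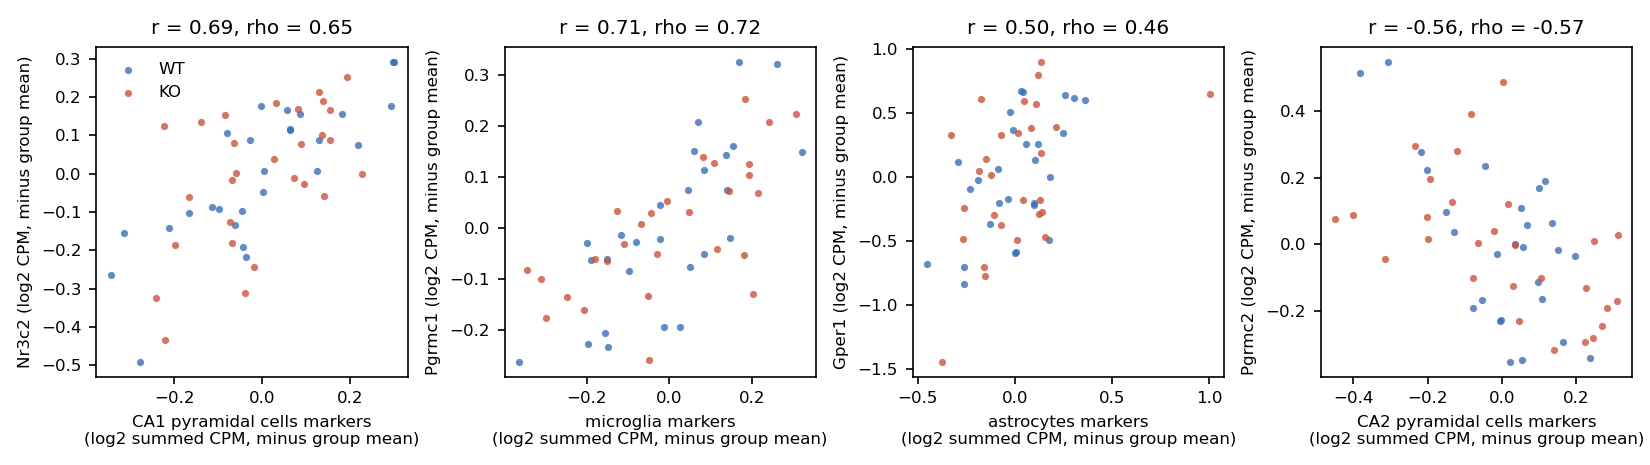
Log2 CPM of 4 receptor genes against the log2 summed CPM of a marker list, each with its group mean removed, 1 point per mouse coloured by genotype (WT blue, KO red). Nr3c2 rises with CA1 markers (r = 0.69), Pgrmc1 with microglial markers (r = 0.71), Gper1 with astrocyte markers (r = 0.50), and Pgrmc2 falls with CA2 markers (r = -0.56).

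Genes most like each member over the 55 mice, again with group means removed, were Hsph1, Ppp1r12a and Copb2 for Esr1 (r = 0.52, 0.50 and 0.49), Tars2, Ahcy and Rnf114 for Gper1 (0.72, 0.70 and 0.70) and Zfp710, Smg5 and Zfp219 for Pgr (0.69, 0.67 and 0.64). For Nr3c1 they included Vps26b and Snx30 (each r = 0.81), and for Nr3c2 Cltc, Wdr7 and Abi2 (0.91, 0.90 and 0.90). Pgrmc1 was closest to Tmem179, Os9 and Prnp (0.82, 0.79 and 0.76) and Pgrmc2 to Bod1, Jund and Rab6a (0.88, 0.87 and 0.87). Such likeness was common for some members: 422 genes had r above 0.7 with Nr3c2 and 457 with Pgrmc2, against 0 with Esr1 and 0 with Pgr. These are descriptions over libraries that share depth and tissue composition.

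Counted over families of comparisons, calls were few. In the 6 WT stage pairs, 0 of 42 tests of the 7 members passed (6 at an unadjusted p under 0.05), where 30.6% of all 16168 genes were called in at least 1 pair. Tests with edgeR and DESeq2 also called 0, but they called only 18 and 214 of all genes there, so these 0 counts add little. Against WT males 0 of 35 tests passed (1 unadjusted), where 0.0866% of genes were called. The corresponding counts with edgeR and DESeq2 were 0, with 11 and 16 of all genes called. The KO stage pairs gave 6 calls in 4 of 7 members (13 unadjusted), where 46.2% of genes were called, and KO stages against KO males gave 3 calls in 2 of 7 (8 unadjusted), where 33.7% were. For KO against WT, 0 of 42 tests passed (7 unadjusted; background 3.64%), and for the differences between genotypes in a stage or sex difference 0 of 77 (7 unadjusted; background 0%), again with 0 in edgeR and DESeq2. Over all genes, edgeR and DESeq2 called 155 and 200 for KO against WT and 0 for the differences between genotypes. Read against these backgrounds, calls in 4 of 7 and 2 of 7 members were not set apart from genes at large. In the order of group means, neighbouring groups overlapped in all 9 neighbour pairs of each gene, and of the 45 group pairs per gene 1 did not overlap for Pgrmc1 (WT males over KO diestrus), 1 for Pgrmc2 (WT estrus over KO metestrus) and 0 for the other 6. How often group pairs separate in genes at large was not computed, so these counts have no background.

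The calls depended on how libraries were weighted. In KO diestrus, the 4 mice under 14 weeks had limma quality weights of 1.61 to 1.74 and both older mice had 0.433 and 0.509. Of the 9 calls, without quality weights and likewise with edgeR or DESeq2, only Pgrmc1 in KO diestrus against KO males stayed under an FDR of 0.05 (0.0414, 0.0462 and 0.0350). Calls over all genes fell as well. In KO stage pairs they went from 7463 genes to 1735, 1359 and 1945 under these 3 settings. In KO stages against KO males they went from 5456 to 1132, 913 and 1501. Leaving out each mouse in turn kept this call and that of Pgrmc2 in KO diestrus against KO proestrus in 55 of 55 fits.

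**Figure D5:**
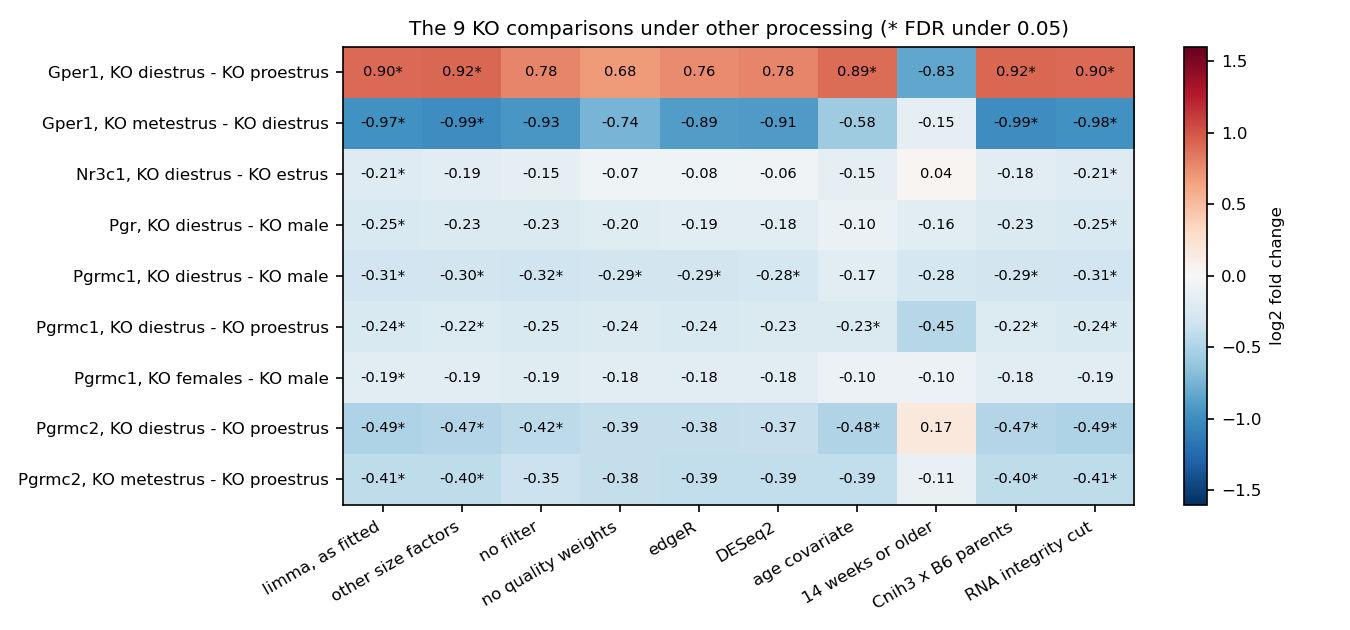
Log2 fold changes of the 9 member comparisons (rows) under 10 ways of processing (columns), with an asterisk where FDR was under 0.05. Pgrmc1 in KO diestrus against KO males keeps its asterisk in all but the columns with age as a covariate and mice of at least 14 weeks; in the latter, 3 other rows change sign.

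Genes of the receptors' pathway were examined in 9 lists with limma. In KO diestrus against KO males, 35 genes of the lists passed and in KO diestrus against KO proestrus 33, comparisons in which 28.7% and 34.3% of all genes were called. The values that follow are log2 differences of KO diestrus from KO males. Of 10 coactivators 3 were higher and 0 lower, namely the acetyltransferase Crebbp (0.31, FDR 3.08e-05), the Mediator subunit Med1 (0.20, FDR 0.00526) and Ncoa1 (0.20, FDR 0.0251), and the list median was 0.05 against 0 for all genes. Of 7 corepressors 3 were higher and 1 lower, with Tbl1xr1 (0.24) and Ncor1 (0.18) among the higher and a list median of 0.12. Of 13 chaperones and immunophilins 4 were higher, among them Hspa8 (0.41, FDR 0.00113) and the Hsp70-interacting St13 (0.23, FDR 0.0167), and 1 was lower, the immunophilin Fkbp4 (-0.55, FDR 0.00195), with a list median of 0.09.

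Other receptors and enzymes moved in both directions. Of 7 related receptors 3 were high enough to be tested, of which 1 was higher and 1 lower, the latter being the orphan receptor Esrra (-1.13, FDR 9.69e-06). Of the 5 membrane progestin receptors 1 was higher, Paqr8 (0.65, FDR 9.67e-06), with a list median of -0.09. Of 11 relatives and partners of the Pgrmc proteins 4 were lower and 0 higher, among them the sterol sensor Scap (-0.92, FDR 1.55e-06), the cytochrome P450 reductase Por (-0.48, FDR 6.2e-05) and Tmem97 (-0.34, FDR 0.0312, named after its value was seen), at a list median of -0.17. H6pd, which supplies the cofactor of the enzyme that regenerates corticosterone, was lower (-0.67, FDR 0.0127) and was 1 of 2 tested.

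Genes known to respond to the hormones had calls in both directions. Of 12 estrogen-responsive genes tested 3 were higher and 5 lower, at a list median of -0.29 (Pgr is itself among them), with the protease Ctsd (-0.49, FDR 9.81e-05) and the growth factor binding protein Igfbp4 (-0.34, FDR 0.00389) lower and the survival factor Bcl2 (0.46, FDR 0.00316) higher. Of 15 glucocorticoid-responsive genes 4 were higher and 4 lower, at a list median of 0.09, with the transcription regulator Tsc22d3 (0.62, FDR 6.03e-05), the sulfotransferase Sult1a1 (0.86, FDR 0.0012) and the metallothionein Mt1 (0.49, FDR 0.00507) higher. Against KO proestrus, by contrast, 0 of these 15 were higher and 4 lower. The counts of 33 and 35 fell to between 7 and 12 with edgeR, DESeq2 or no quality weights. Calls over all genes fell too under these settings, as given above. With age as a covariate, 9 list genes passed against KO males, namely Crebbp, Fkbp4, Esrra, Paqr8, Scap, Por, Ctsd, Bcl2 and Tsc22d3. The other genes named for this comparison lost their calls. The differences of Tbl1xr1 (0.081, FDR 0.642), Ncor1 (0.082, FDR 0.550), Igfbp4 (-0.193, FDR 0.273) and Sult1a1 (0.551, FDR 0.156) shrank by over 1.5 times. Also lost were Med1 (FDR 0.115), Ncoa1 (FDR 0.272), Hspa8 (FDR 0.113), St13 (FDR 0.0679), H6pd (FDR 0.171) and Mt1 (FDR 0.168). Over all genes, calls in KO stages against KO males fell from 5456 to 1540 in that fit.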

How the data were processed

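Dorsal hippocampi of 55 mice were sequenced as unstranded paired-end libraries. Per the labels and the study's methods, the authors lysed tissue in NP-40 buffer, took the cleared supernatant, made cDNA from poly(A) RNA with the SMARTer Ultra Low kit, aligned reads to GRCm38 with STAR 2.7.9a and counted them per gene with featureCounts 2.0.3. They deposited raw counts per gene, estimated counts per transcript (processing notes name Salmon 1.5.2) and log2 CPM of the genes tested. Material pelleted at that step is not represented. Of the count columns, 1 matched no sample and was not used, and 287 repeated lines were dropped. After removal of 5 ribosomal RNA genes, 16168 genes that exceeded 1 CPM in 10 or more libraries were kept.

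Counts were normalized by TMM (edgeR 4.0.16) and fitted in R 4.3.3 with voomWithQualityWeights in limma 3.58.1, with 1 mean per group, contrasts between means and Benjamini-Hochberg FDR over all genes of a comparison. Recomputed values matched the authors' log2 CPM table to 5e-14 over 16164 genes. The fit was tested on simulated data. Alternatives were edgeR's quasi-likelihood test, DESeq2 1.42.0, other size factors, no quality weights, no filter, age as a covariate, subsets by age, parents or RNA integrity, and leaving out each mouse. Relations across mice used residuals from group means, and 100000 permutations within groups. Parents and RNA integrity numbers came from the study's sample metadata. Depth per sample was 25881295 to 63547098 reads. The members and gene lists were chosen with earlier results of these data known. Named genes were the 8 members, Cnih3, up to 3 genes per list with the smallest FDR, and the 3 genes most correlated with a member. Promoter windows are from RefSeq, with all 8 windows of 7 members matched. Some genes that this rule names are not reported here.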

Additional observations from a re-analysis of the deposited data

Results flagged for a closer look

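In 5 of the 80 combinations of gene and group, 1 mouse stood apart from the others of its group by Dixon's criterion, where chance flags about 1 in 20. Esr2 reached 0.287 CPM (14 reads) in 1 WT diestrus mouse, with the next at 0.0777, and 0.15 CPM (7 reads) in 1 WT male, with the next at 0.0196. Nr3c1 was 120 CPM in that same WT male, with the next at 95.3, and 104 CPM in 1 KO male, with the next at 91.2. Pgrmc1 was 305 CPM in another WT male, with the next at 280. No difference between genotypes in a stage or sex difference passed the test for any member in limma.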

How the results depend on the processing

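No paired analysis was possible because the labels give no replicate number that the groups share. Some mouse names share their first part, whose meaning the labels do not give, and no fit used it. Values are counts of member calls unless named otherwise, and the alternatives for genotype differences and gene lists, like the RNA integrity subset outside WT stage pairs, were chosen after seeing the data. Calls in KO stage pairs (6) were 0 with edgeR, 0 with DESeq2, 0 without quality weights, 1 without a filter, 3 with age as a covariate and 0 in mice of at least 14 weeks. Calls in KO stages against KO males (3) were 1 with edgeR, DESeq2, median-of-ratios size factors, no quality weights, no filter or only mice with a parent of the Cnih3 line, and 0 with age as a covariate or in mice of at least 14 weeks. With age as a covariate, calls over all genes went from 7463 to 5969 in KO stage pairs. Against KO males they went from 5456 to 1540. Calls in WT stage pairs (0) were 1 with age (Pgr), 1 in mice of at least 14 weeks (Pgr), 1 in mice with a parent of the Cnih3 line and 1 without WT proestrus libraries of RNA integrity under 8 (both Pgrmc2). Among mice with a parent of the Cnih3 line, WT stages against males had 3 (Pgr, Nr3c1 and Nr3c2 in diestrus) and KO against WT had 1 (Pgrmc2, log2 -0.275, limma FDR 0.0136). In that subset 8190 of 16168 genes were called against WT males and 2844 for KO against WT. With all mice these numbers were 14 and 589. Genotype differences had 2 without the low-integrity WT proestrus libraries (Pgrmc2), where 1097 of all genes were called, against 0 with all libraries. Pathway genes called in KO diestrus against KO proestrus (33) were 7 with edgeR, 8 with DESeq2, 7 without quality weights, 12 without a filter and 0 in mice of at least 14 weeks, and against KO males (35) they were 8, 12, 10, 16 and 0, and 9 with age. In mice of at least 14 weeks, with 1 KO proestrus and 2 KO diestrus mice, the log2 differences turned to -0.834 for Gper1, 0.173 for Pgrmc2 (both KO diestrus against proestrus), 0.035 for Nr3c1 (against KO estrus), -0.033 for Hspa8 and 0.199 for H6pd (against KO males). With so few mice, 26 of 16168 genes were called in any KO stage pair there, so the counts of 0 for stage pairs say nothing about stability. For KO stages against KO males, 1296 of all genes were called in at least 1 comparison, with 0 member calls. The cause of the shifts was not tested. Leaving out each mouse gave 0 to 6 calls in WT stage pairs (6 without WT diestrus replicate 2, 5 without replicate 6, 3 without replicate 1, 2 without WT estrus replicate 6), 0 to 2 in WT stages against males (2 without WT male replicate 2), 2 to 8 in KO stage pairs (2 without KO diestrus replicate 3, 3 without KO proestrus replicate 1), 1 to 5 in KO stages against males (5 without WT metestrus replicate 1 or 4, or KO metestrus replicate 4), 0 to 1 in KO against WT (1 without WT diestrus replicate 3), 0 to 0 in genotype differences, 16 to 33 pathway genes in KO diestrus against proestrus (16 and 18 without KO proestrus replicates 1 and 2) and 23 to 38 against KO males (23 without KO diestrus replicate 5). Calls over all genes moved in the same fits. In WT stage pairs, 4948 genes were called with all mice and 8717, 8721 and 8693 without WT diestrus replicates 2, 6 and 1. Without replicates 3, 4 and 5 they were 1141, 1121 and 1128, with 0 member calls. Against WT males, 14 genes were called with all mice and 3422 without WT male replicate 2. In the 55 fits 0 of the 9 calls reversed. The call for Pgrmc1 in KO females against males was lost in 26, Pgrmc2 in KO metestrus against proestrus in 11, Pgr in 10 and Nr3c1 in 8. Esr2, with 188 reads in all, and Esr1 and Gper1, with medians of 107 and 96, are limited by counting error.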
